A study of Mus musculus with 5 samples.

Results

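Hedgehog proteins are secreted ligands. Desert hedgehog, encoded by Dhh, is made in the testis by Sertoli cells and acts on the cells around the tubules, where it is needed for fetal and adult Leydig cells, the androgen-producing cells, to form. Without ligand the receptor Patched 1 (Ptch1) holds the membrane protein Smoothened (Smo) inactive. When ligand binds, Smoothened is released and signals through the primary cilium to the GLI transcription factors, which Suppressor of fused (Sufu) otherwise restrains. Ptch1, Gli1 and the ligand-binding decoy Hhip are themselves GLI targets, so their transcripts are commonly used as readouts of the pathway.

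The pathway was examined through 8 genes, Dhh, Ptch1, Smo, Gli1, Gli2, Gli3, Hhip and Sufu, taken as the probes that carry these symbols in the platform annotation. All 8 had a named probe, 1 each, among 19084 genes measured on 5 single-colour mouse microarrays. In GRCm38.p6 they lie on chromosomes 15 (Dhh), 13 (Ptch1 and Gli3), 6 (Smo), 10 (Gli1), 1 (Gli2), 8 (Hhip) and 19 (Sufu). The iLC group (induced Leydig-like cells) is 2 arrays of mouse embryonic fibroblasts given the gonadal transcription factors Dmrt1, Gata4 and Nr5a1 by lentivirus. The Leydig group, also 2 arrays, is made up of Leydig cells isolated from testes of mice aged 56 days. The MEF group is 1 array of mouse embryonic fibroblasts transduced with a mock vector. The fibroblasts of both cultured groups came from embryos 13.5 days post coitus whose head and viscera had been removed. After 12 hours with virus, cells were kept in medium with the growth factors IGF (50 ng/ml) and PDGFAA (10 ng/ml), per the labels' protocols. That text is repeated for all 5 samples, and it leaves unsaid if the mock-vector cells had this medium and how long any cells were cultured; the strain is not given either. The arrays of a pair are replicates by their titles, and separate cultures or animals are not mentioned. P-values therefore measure only the spread between these arrays, which may be technical.

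The Leydig arrays carried steroidogenic transcripts in part. Of 9 measured steroidogenic Leydig markers, 5 were higher in Leydig than in MEF by limma, Hsd3b1, Nr5a1, Cyp17a1, Fdx1 and Gata4, where 3.39% of all genes were, and 2 of 9 without Leydig replicate 2. Cyp11a1 read 510 and 451 on the Leydig arrays, 603 and 907 on the iLC arrays and 562 on the MEF array. These readings were below the median of each array, and how well this probe reports its transcript was not tested. In iLC against MEF 2 of the 9 were higher and 0 lower, where 0.283% of all genes were higher: Hsd3b1, which makes progesterone from pregnenolone, by 5.18 on the log2 scale (limma adjusted p = 0.0331) and Fdx1, an electron donor of steroid synthesis, by 3.53 (limma adjusted p = 0.0387). Both of these calls were lost when any 1 iLC or Leydig array was left out, with an added 1 and with low ends subtracted (limma adjusted p up to 0.146 and 0.16). Star, which carries cholesterol into mitochondria, read 56878 and 73892 on the iLC arrays, 1368 and 19703 on the Leydig arrays and 695 on the MEF array, and its difference of 6.51 between iLC and MEF was not called (limma adjusted p = 0.107). None of the 3 delivered factors was called in iLC against MEF: the log2 difference was -0.91 for Gata4, 0.06 for Nr5a1 and -0.07 for Dmrt1. The position of these probes relative to the vector inserts is not known here. The Leydig preparations also held other transcripts: the intensities of 10 germ cell markers summed to 10512 and 9799 in iLC, to 34520 and 395128 on Leydig replicates 1 and 2, and to 8688 in MEF. The deposited values had array medians of 1111 to 1230 and unequal low ends, with a 1st percentile of -10.1 and 23.7 on the iLC arrays, 36.9 and 21.0 on the Leydig arrays and 83.8 on the MEF array. With so few arrays, precision is low throughout.

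Among the 8 genes, Dhh, Gli3 and Hhip had the largest differences between groups. Their RefSeq promoter windows (GRCm38.p6, each 250 bases before the gene's start and 50 from it on, 5′ to 3′ on the gene's strand) are printed here for reference, with every GC box (GGGCGG on either strand, the site of SP1-family factors) in capitals. They are chr15:98898491-98898790 (minus strand) for Dhh, chr13:15463473-15463772 (plus strand) for Gli3 and chr8:80057959-80058258 (minus strand) for Hhip.
Dhh: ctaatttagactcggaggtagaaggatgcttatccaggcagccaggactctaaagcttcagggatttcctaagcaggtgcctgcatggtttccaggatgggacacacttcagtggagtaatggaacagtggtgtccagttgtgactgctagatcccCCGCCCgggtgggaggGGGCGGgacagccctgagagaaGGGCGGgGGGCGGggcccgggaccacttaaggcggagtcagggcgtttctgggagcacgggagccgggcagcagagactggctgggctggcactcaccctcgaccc
Gli3: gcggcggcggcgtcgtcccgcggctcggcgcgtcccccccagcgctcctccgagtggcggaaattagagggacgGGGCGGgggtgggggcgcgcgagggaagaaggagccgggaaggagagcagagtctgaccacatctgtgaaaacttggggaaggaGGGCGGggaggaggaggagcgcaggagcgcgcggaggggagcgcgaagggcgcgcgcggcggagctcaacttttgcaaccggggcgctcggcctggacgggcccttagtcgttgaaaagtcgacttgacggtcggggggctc
Hhip: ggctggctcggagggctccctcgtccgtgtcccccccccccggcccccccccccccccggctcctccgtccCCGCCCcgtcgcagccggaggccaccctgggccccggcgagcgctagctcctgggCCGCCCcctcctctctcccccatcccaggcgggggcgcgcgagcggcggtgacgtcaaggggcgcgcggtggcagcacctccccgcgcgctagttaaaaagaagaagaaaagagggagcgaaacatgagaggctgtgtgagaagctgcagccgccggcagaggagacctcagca
The Dhh window held 4 GC boxes, with first bases at -94, -78, -56 and -49 from the start, and the Gli3 and Hhip windows held 2 each. Of the 7 members with a window in the table (Gli1 was not among them) 6 held at least 1, against 35.7% of the 32851 windows of all genes. The 7 windows were 56.3% to 76.3% G or C, and the windows of all genes were not matched for this. The count is therefore no test of enrichment. The GLI consensus GACCACCCA, searched on both strands, was in 0 of the 7 windows and in 0.253% of all windows, and with any 1 base free it was in 0 of the 7 and 6.74%. Letters for the delivered factors, searched on both strands, were also in 0 of the 7: GATA with A or T before it and A or G after it (29.8% of all windows), the NR5A1 words CAAGGTCA and CAAGGCCA (3.92%) and ACATTGT from the DMRT1 consensus (2.96%). Windows with the exact GLI word are also counted under the word with 1 free base. A count of 0 says only that these letters are not in the window.

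None of the 8 genes passed the test in any of the 3 comparisons. The test was limma's moderated linear model on log2(intensity + 16) over all 19084 genes, two-sided, and a gene is called when its Benjamini-Hochberg adjusted p is under 0.05. Between iLC and MEF 0 of 8 were called, where 0.571% of all genes were. Between iLC and Leydig 0 of 8 were called, against 11.4% of all genes, and between Leydig and MEF 0 of 8, against 7.38%. At an unadjusted p under 0.05 there were 2 of 8 between iLC and MEF (Dhh and Hhip), beside 15.8% of all genes. There were 2 between iLC and Leydig (Dhh and Gli3), beside 26.8%, and 2 between Leydig and MEF (Gli3 and Hhip), beside 19.9%. The median absolute log2 difference of the 8 members was 0.29 between iLC and MEF (0.47 over all genes), 0.44 between iLC and Leydig (0.49) and 0.37 between Leydig and MEF (0.50). Only 2 residual degrees of freedom were left to the fit, all from the iLC and Leydig pairs, and MEF with its 1 array was assumed to have the same spread.

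**Figure D1:**
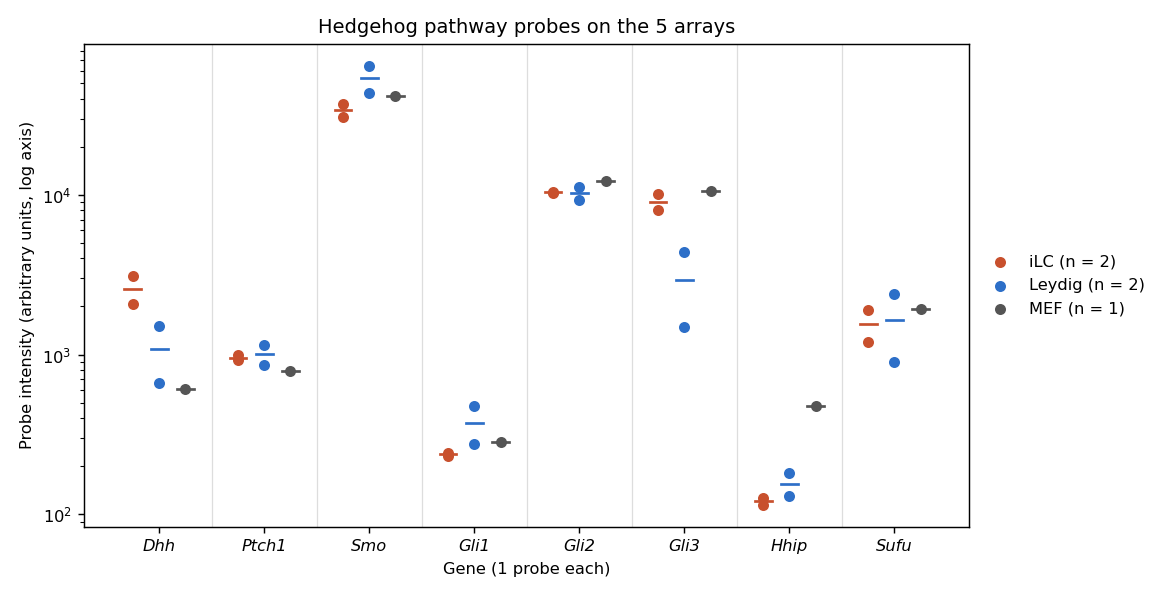
Probe intensity (log axis, arbitrary units) of the 8 hedgehog pathway genes, with 1 point per array and a short line at the mean of each group, iLC (n = 2), Leydig (n = 2) and MEF (n = 1) from left to right within a gene. Dhh is highest on both iLC arrays, Gli3 lowest on both Leydig arrays and Hhip highest on the MEF array; levels of different probes are not comparable.

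Dhh, the ligand, read highest in the factor-transduced cells. Its probe read 3082 and 2064 on the iLC arrays, 1501 and 662 on the Leydig arrays and 608 on the MEF array. Both iLC arrays lay above both Leydig arrays, and the lower Leydig array was close to the MEF array. Dhh averaged 2573 ± 720.2 in iLC (SD, n = 2) and 1082 ± 593 in Leydig cells (SD, n = 2), so that the iLC mean was 4.23 times the MEF reading and 2.38 times the Leydig mean. The log2 difference between iLC and MEF was 2.02 ± 0.58 (SE, limma adjusted p = 0.184), with an unadjusted 95% interval of 0.62 to 3.43, and 4.59% of all genes had a larger absolute difference. Between iLC and Leydig it was 1.32 ± 0.47 (SE, limma adjusted p = 0.138), and between Leydig and MEF 0.70 ± 0.58 (limma adjusted p = 0.593). The order iLC, Leydig, MEF therefore rests on steps that did not pass. The iLC to Leydig difference of Dhh was 0.74 without Leydig replicate 2 and 1.90 without Leydig replicate 1, and the Leydig to MEF difference was 1.28 without Leydig replicate 2 and 0.12 without Leydig replicate 1.

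Markers of the cell types known to make Dhh were read beside it. Of 18 measured Sertoli cell markers 0 were called between iLC and MEF (median log2 difference 0.26, against -0.11 over all genes), where 0.571% of all genes were. Their summed intensity was 109484 and 186001 on the iLC arrays, 437810 and 780455 on the Leydig arrays and 65239 on the MEF array, and on the Leydig arrays most of it came from Clu, Aard and Ptgds. Ptgds read 2214 and 235608 on Leydig replicates 1 and 2. As the sums rest on few genes, they do not rank the arrays by Sertoli cell content. In iLC against Leydig 1 Sertoli marker was higher (Inhbb, an inhibin subunit) and 3 lower (Aard, Cldn11 and Clu). Over all genes 5.74% were higher and 5.69% lower there. The calls of Clu (-2.94 to -2.08) and Cldn11 (-3.29 to -2.35) were not kept under all 14 alternatives. In Leydig against MEF 4 Sertoli markers were higher and 1 lower (median 0.84), where 3.39% and 3.99% of all genes were. None of these Leydig to MEF calls was kept under every alternative. Amh, anti-Müllerian hormone, read 6.75 and 137 on the iLC arrays, 89.2 and 216 on the Leydig arrays and 229 on the MEF array, and none of the 18 was listed at 0. Schwann cells and endothelial cells also make Dhh. Of 6 Schwann and glial markers 0 were called in any comparison, with summed intensities of 14793 and 15081 on the iLC arrays, 25996 and 13726 on the Leydig arrays and 15501 on the MEF array. Of 8 endothelial markers 0 were called between iLC and MEF, with sums of 9289 and 10219 on the iLC arrays, 20741 and 16133 on the Leydig arrays and 11016 on the MEF array. In iLC against Leydig 1 of these was lower, the adherens junction gene Cdh5, where 5.69% of all genes were lower. In such mixed samples fewer cells of a type and less RNA per cell cannot be told apart, and the part of these cell types in the Dhh readings was not tested.

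Ptch1, the receptor and a GLI target, was close to level. It read 922 and 989 on the iLC arrays, 1153 and 858 on the Leydig arrays and 784 on the MEF array. The iLC readings lay between the 2 Leydig readings, and all 4 were above MEF by small margins. The log2 difference was 0.28 ± 0.39 between iLC and MEF (SE, limma adjusted p = 0.787, 95% interval -0.68 to 1.24), -0.06 ± 0.32 between iLC and Leydig (limma adjusted p = 0.93) and 0.34 ± 0.39 between Leydig and MEF (limma adjusted p = 0.722). The intervals leave room for differences above 1 on the log2 scale against MEF.

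Hhip, which binds hedgehog ligands at the cell surface and blocks them, read highest in the fibroblasts given the mock vector. Its probe read 127 and 115 on the iLC arrays, 182 and 129 on the Leydig arrays and 477 on the MEF array. The MEF reading was 3.95 times the iLC mean and 3.07 times the Leydig mean, and the iLC and Leydig pairs were close to each other. The log2 difference was -1.85 ± 0.40 between iLC and MEF (SE, limma adjusted p = 0.108) and -1.54 ± 0.40 between Leydig and MEF (limma adjusted p = 0.0785), and it was -0.31 ± 0.32 between iLC and Leydig (limma adjusted p = 0.6). The Hhip probe was dim, ranking between the 10.5th and the 33.3rd percentile of its array's probes, and the low end of the MEF array was the highest of the 5. With each array's low end subtracted first, the difference was -1.68 between iLC and MEF (limma adjusted p = 0.199) and -1.53 between Leydig and MEF (limma adjusted p = 0.11). Its height on MEF rests on 1 array. Macrophage markers were also highest there: 9 of them summed to 50089 and 106996 on the iLC arrays, 22517 and 19127 on the Leydig arrays and 176171 on the MEF array. Of the 9, 0 were called between iLC and MEF (median -1.07), and 0 were higher and 5 lower between Leydig and MEF (median -2.84), where 3.99% of all genes were lower; without Leydig replicate 2 the 5 became 0, and without Leydig replicate 1 they became 2. The sums of 6 smooth muscle and 11 fibroblast markers were highest on the MEF array too (595588 and 1374530). Of both lists 0 were called between iLC and MEF (medians -1.34 and -0.42, against -0.11 over all genes). Between Leydig and MEF 5 smooth muscle and 3 fibroblast markers were lower and 0 higher. The part of macrophage, smooth muscle and fibroblast RNA in the Hhip readings was not tested.

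Smo, the signal-transducing membrane protein, was bright on all 5 arrays. It read 30713 and 37003 on the iLC arrays, 64119 and 43694 on the Leydig arrays and 41592 on the MEF array. Both iLC arrays lay below the MEF array and below both Leydig arrays. The log2 difference was -0.65 ± 0.34 between iLC and Leydig (SE, limma adjusted p = 0.295), -0.30 ± 0.42 between iLC and MEF (limma adjusted p = 0.785) and 0.35 ± 0.42 between Leydig and MEF (limma adjusted p = 0.735). The groups did not overlap in iLC against Leydig, yet 58% of all genes did not overlap there.

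Sufu, the inhibitor of GLI proteins, varied within pairs more than between groups. It read 1892 and 1195 on the iLC arrays, 899.6 and 2399 on the Leydig arrays and 1927 on the MEF array. Its 2 Leydig readings enclosed all the others. The log2 difference was 0.03 ± 0.53 between iLC and Leydig (SE, limma adjusted p = 0.977), -0.35 ± 0.65 between iLC and MEF (limma adjusted p = 0.842) and -0.39 ± 0.65 between Leydig and MEF (limma adjusted p = 0.82). Its sign turned between iLC and Leydig without iLC replicate 1 (-0.30), without Leydig replicate 1 (-0.67) and after quantile normalization (-0.0016).

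The GLI factors carry the signal into the nucleus. Gli3, which in the absence of ligand is cut to the pathway's main repressor, read lower on both Leydig arrays than on all 3 arrays of fibroblast origin. Gli3 read 7991 and 10103 on the iLC arrays, 4375 and 1486 on the Leydig arrays and 10503 on the MEF array. The iLC mean was 3.09 times the Leydig mean and the MEF reading 3.58 times it, while the iLC arrays were near the MEF array. The log2 difference of Gli3 was 1.81 ± 0.54 between iLC and Leydig (SE, limma adjusted p = 0.0884), -2.03 ± 0.66 between Leydig and MEF (limma adjusted p = 0.149) and -0.22 ± 0.66 between iLC and MEF (limma adjusted p = 0.905). The comparisons share the Leydig arrays, whose readings of Gli3 were 2.94-fold apart. Without Leydig replicate 1 the iLC to Leydig difference was 2.58 and was called (limma adjusted p = 0.0417), and without Leydig replicate 2 it was 1.04 and was not (limma adjusted p = 0.25). Leydig replicate 2, with the lower Gli3 reading, was also the array with the higher germ cell sum. Of 11 fibroblast markers 3 were higher in iLC than in Leydig (Fn1, Lox and Postn) and 0 lower, and of 6 smooth muscle markers 5 were higher and 0 lower. Among all genes 5.74% were higher and 5.69% lower between iLC and Leydig. Between the same groups 4 of 9 macrophage markers were higher and 0 lower (median 2.08), and 0 were called without iLC replicate 2 or without Leydig replicate 2. Fibroblast sums were 1297670 and 990925 on the iLC arrays, 943989 and 716419 on the Leydig arrays and 1374530 on the MEF array. The part of germ cell, fibroblast, smooth muscle and macrophage RNA in the Gli3 readings was not tested.

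Gli2, the main activator of the pathway in mice, hardly varied. It read 10477 and 10287 on the iLC arrays, 11122 and 9266 on the Leydig arrays and 12227 on the MEF array. The iLC readings lay between the Leydig readings. The log2 difference was 0.03 ± 0.31 between iLC and Leydig (SE, limma adjusted p = 0.96, 95% interval -0.71 to 0.78), -0.24 ± 0.38 between iLC and MEF (limma adjusted p = 0.814) and -0.27 ± 0.38 between Leydig and MEF (limma adjusted p = 0.779).

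Gli1, an activator whose own transcription is raised by the pathway, was dim on every array. It read 232 and 244 on the iLC arrays, 474 and 276 on the Leydig arrays and 283 on the MEF array. Both iLC readings were the lowest of the 5, and Leydig replicate 1 stood above the rest. The log2 difference was -0.58 ± 0.37 between iLC and Leydig (SE, limma adjusted p = 0.382), -0.24 ± 0.45 between iLC and MEF (limma adjusted p = 0.846) and 0.34 ± 0.45 between Leydig and MEF (limma adjusted p = 0.763). Between iLC and MEF the sign turned with aligned low ends (0.20) and after quantile normalization (0.062), and between Leydig and MEF it was -0.036 without Leydig replicate 1. Of the readouts named at the start, Ptch1, Gli1 and Hhip, none was called in any comparison. Hhip had the largest difference of them between iLC and MEF (-1.85, limma adjusted p = 0.108). Its sign was opposite to that of Dhh (2.02), which was not called either.

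**Figure D2:**
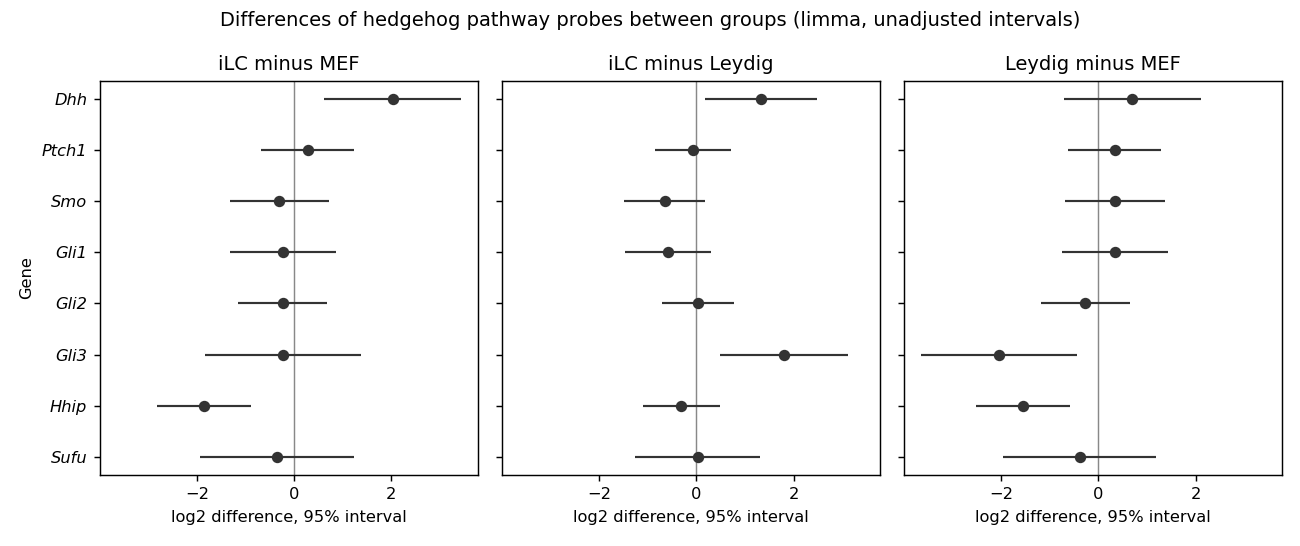
Log2 differences (points) with unadjusted 95% intervals from limma (lines) for the 8 genes in iLC minus MEF, iLC minus Leydig and Leydig minus MEF. The intervals of Dhh, Hhip and Gli3 leave 0 in 2 comparisons each; no gene passed after adjustment over all genes.

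The spread between paired arrays differed by group for these genes. The median absolute log2 difference within the iLC pair was 0.20 over the 8 members and 0.37 over all genes, and within the Leydig pair it was 0.65 over the members and 0.37 over all genes. The Leydig pair was widest for Gli3 (1.55), Sufu (1.40) and Dhh (1.16). Between iLC and MEF the arrays did not overlap for 8 of 8 members, beside 78.4% of all genes; between iLC and Leydig for 5 of 8, beside 58%; and between Leydig and MEF for 6 of 8, beside 77.1%. With 8 members, these counts are read only against those shares.

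Genes with patterns most like those of 3 members were found by the root mean square difference of log2 values, each gene centred on its mean over the 5 arrays, among 17059 genes. Closest to Dhh were Ror1 (0.139), Arrdc3 (0.169), Fam117a (0.177), Atl1 (0.18) and Prom1 (0.183), where Dhh itself varied by 0.903 around its mean. Ror1, a receptor-like kinase that binds a Wnt ligand, read 1424 and 975 on the iLC arrays, 828 and 380.0 on the Leydig arrays and 341 on the MEF array. Closest to Gli1 were Gucd1, Edn3, Mcrs1, Erp44 and Epc2 (0.0666 to 0.0842), where Gli1 varied by only 0.351. Closest to Hhip were Rps24, Ces1h, Pkmyt1, Cdt1 and Mir218-2 (0.121 to 0.139), where Hhip varied by 0.708. Ces1h read between -30.4 and 53.1 on the 5 arrays, and Mir218-2 read 15.8 and 20.6 on the iLC arrays, close to the arrays' low ends, so that the likeness of these 2 rests on the lowest readings and the added 16. The likeness describes 5 arrays only.

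The ligands and the proteins that release them were examined beside Dhh, in a list of 8 measured genes. Between iLC and MEF 0 of 8 were called (median log2 difference 0.32, against -0.11 over all genes), where 0.283% of all genes were higher and 0.288% lower. Between iLC and Leydig 1 was higher and 0 lower (median 0.50, against -0.03), where 5.74% of all genes were higher and 5.69% lower. Disp1, Dispatched 1, which releases the lipid-bearing ligand from the cells that make it, read 26733 and 28902 on the iLC arrays, 8748 and 7493 on the Leydig arrays and 15852 on the MEF array. Both iLC arrays were above all the others. Disp1 was higher in iLC than in Leydig by a log2 difference of 1.78 ± 0.31 (SE, limma adjusted p = 0.0166), and its difference from MEF was 0.81 ± 0.37 (limma adjusted p = 0.364). Leaving out any 1 array of iLC or Leydig ended the call (limma adjusted p = 0.0616 to 0.101). Scube2, a secreted partner in ligand release, differed by 1.09 and Scube1 by 1.02 between iLC and MEF without passing, and Ihh, Indian hedgehog, by -1.27. A second, dimmer Scube1 probe went the other way between iLC and MEF (-0.94). Shh, Sonic hedgehog, differed by 0.21 between iLC and MEF and 0.05 between iLC and Leydig. Between Leydig and MEF 0 of 8 passed (median -0.05, against -0.10), where 3.39% of all genes were higher and 3.99% lower.

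Co-receptors bind ligand beside Patched 1. Of 8 measured co-receptors and membrane regulators 0 were called between iLC and MEF (median -0.32), 1 was higher and 2 lower between iLC and Leydig (median -0.20), and 0 were higher and 1 lower between Leydig and MEF (median -0.25). The medians over all genes were -0.11, -0.03 and -0.10. Of all genes 0.571% were called between iLC and MEF. Between iLC and Leydig 5.74% were higher and 5.69% lower, and between Leydig and MEF 3.39% and 3.99%. Boc and Cdon are related immunoglobulin-family proteins that help hedgehog ligands bind Patched. Boc read 7096 and 5719 on the iLC arrays, 19588 and 16960.1 on the Leydig arrays and 6966 on the MEF array, a log2 difference of -1.51 ± 0.32 between iLC and Leydig (SE, limma adjusted p = 0.0316). Cdon read 4735 and 5751 on the iLC arrays, 14895 and 22908 on the Leydig arrays and 7727 on the MEF array, a log2 difference of -1.82 ± 0.35 between iLC and Leydig (SE, limma adjusted p = 0.0251). The iLC readings of Boc lay on either side of the MEF reading, and those of Cdon were both below it. The difference from MEF was -0.13 for Boc and -0.56 for Cdon in iLC, and 1.39 for Boc and 1.26 for Cdon in Leydig cells, with no call. Both calls between iLC and Leydig were lost without any 1 of the 4 arrays (limma adjusted p = 0.0958 to 0.138 for Boc and 0.0542 to 0.131 for Cdon). A second, dimmer Cdon probe went the other way between iLC and Leydig (0.14) and between iLC and MEF (0.54). The mean of both probes differed by -0.84 between iLC and Leydig (limma adjusted p = 0.178).

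Lrp2, or megalin, an endocytic receptor that also takes up hedgehog ligands, had the opposite pattern to Boc and Cdon. It read 949 and 1821 on the iLC arrays, 187 and 132 on the Leydig arrays and 1485 on the MEF array. The iLC readings lay on either side of the MEF reading, and both Leydig readings were far below. Lrp2 was higher in iLC than in Leydig by 2.94 ± 0.42 on the log2 scale (SE, limma adjusted p = 0.0088) and lower in Leydig than in MEF by a difference of -3.12 ± 0.51 (limma adjusted p = 0.0201). Both calls were lost without Leydig replicate 1 (limma adjusted p = 0.0529 and 0.0747) or Leydig replicate 2 (0.0907 and 0.121). Gpr161, a ciliary receptor that restrains the pathway, read 450.3 and 593 on the iLC arrays, 251 and 140.4 on the Leydig arrays and 725 on the MEF array, with log2 differences of 1.38 between iLC and Leydig (limma adjusted p = 0.0742) and -1.86 between Leydig and MEF (limma adjusted p = 0.0748).

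**Figure D3:**
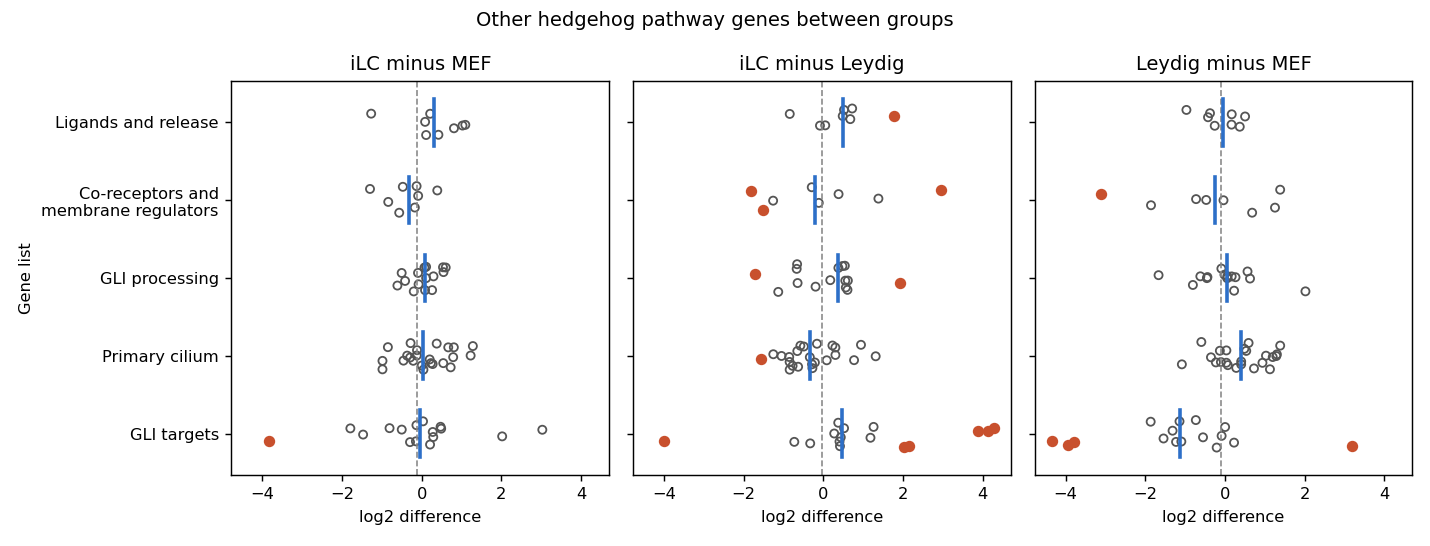
Log2 differences of the other pathway genes in 5 lists, for iLC minus MEF, iLC minus Leydig and Leydig minus MEF, with 1 circle per gene. Filled circles are genes called by limma, blue bars the median of each list and the dashed line the median over all 19084 genes; calls lie mostly in iLC minus Leydig and among the GLI targets.

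Kinases and ubiquitin ligases process the GLI proteins. Of 15 measured 0 were called between iLC and MEF (median 0.08), where 0.571% of all genes were. Between iLC and Leydig 1 was higher and 1 lower (median 0.38), where 5.74% of all genes were higher and 5.69% lower. Between Leydig and MEF 0 were called (median 0.06), where 7.38% of all genes were. Csnk1e, a casein kinase, read 12455 and 23331 on the iLC arrays, 4475 and 4461 on the Leydig arrays and 14227 on the MEF array, a log2 difference of 1.93 ± 0.39 between iLC and Leydig (SE, limma adjusted p = 0.0294). Gsk3b, a kinase that acts on GLI proteins already phosphorylated by protein kinase A, read 199 and 115 on the iLC arrays, 466 and 621 on the Leydig arrays and 121 on the MEF array, a log2 difference of -1.72 ± 0.38 between iLC and Leydig (SE, limma adjusted p = 0.0372). The Gsk3b probe was dim, and its call was lost with each array's low end subtracted (limma adjusted p = 0.0935) and with an added 1 in place of 16 (0.0565). The Csnk1e call was lost with low ends subtracted (limma adjusted p = 0.0531). Leaving out 1 array ended the call of Csnk1e for 3 of the 4 iLC and Leydig arrays, all but iLC replicate 1 (limma adjusted p = 0.112 to 0.162), and of Gsk3b for all 4 (0.0662 to 0.195). Prkaca, a catalytic subunit of protein kinase A, the priming kinase of GLI proteins, differed by -1.13 between iLC and Leydig (limma adjusted p = 0.074).

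Primary cilium genes gave 0 calls among 23 measured between iLC and MEF (median 0.04) and between Leydig and MEF (median 0.41), and 1 lower gene between iLC and Leydig (median -0.34). Of all genes 0.571% were called between iLC and MEF, 7.38% between Leydig and MEF and 11.4% between iLC and Leydig. The medians over all genes were -0.11, -0.10 and -0.03 in that order. Tmem67, a protein of the ciliary transition zone, read 1622 and 1295 on the iLC arrays, 3873 and 4836 on the Leydig arrays and 1763 on the MEF array. Its log2 difference was -1.57 ± 0.32 between iLC and Leydig (SE, limma adjusted p = 0.0307), which no longer passed when any 1 array of iLC or Leydig was left out (limma adjusted p = 0.0827 to 0.154). Tulp3, which carries receptors into the cilium, differed by 1.31 (limma adjusted p = 0.0505) and the transport component Ift74 by -1.26 (limma adjusted p = 0.0547) between iLC and Leydig. Bbs4 (1.28) and Dync2li1 (1.23) had the largest differences between iLC and MEF, without passing.

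Genes known as GLI targets in one tissue or another did not move one way. Of 16 measured beyond the members, 0 were higher and 1 lower between iLC and MEF (median -0.05), 5 higher and 1 lower between iLC and Leydig (median 0.48), and 1 higher and 3 lower between Leydig and MEF (median -1.12). Over all genes, 0.283% were higher and 0.288% lower between iLC and MEF. The shares were 5.74% higher and 5.69% lower between iLC and Leydig, and 3.39% higher and 3.99% lower between Leydig and MEF. The medians over all genes were -0.11, -0.03 and -0.10 in that order. Foxf1, a forkhead factor of the mesenchyme and a hedgehog target in the gut and lung, read 5738 and 4918 on the iLC arrays, 521 and 226 on the Leydig arrays and 1298 on the MEF array. Sfrp1, a secreted Wnt antagonist, read 206024 and 120698 on the iLC arrays, 16188 and 5039 on the Leydig arrays and 19322 on the MEF array. Both genes were, like Dhh, highest on both iLC arrays, and so were the targets Ccnd1, Ccnd2, Bmp4 and Nkx2-2. The share of all genes with this order was not counted. Foxf1 differed by 3.89 ± 0.45 between iLC and Leydig (log2, SE, limma adjusted p = 0.0043) and by 2.02 ± 0.55 between iLC and MEF (limma adjusted p = 0.168). Sfrp1 differed by 4.12 ± 0.60 between iLC and Leydig (limma adjusted p = 0.00985) and by 3.03 ± 0.74 between iLC and MEF (limma adjusted p = 0.139). The Sfrp1 call was lost without iLC replicate 1 (limma adjusted p = 0.0639) or Leydig replicate 2 (0.0545), while Foxf1 was called under all 14 alternatives.

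Igfbp6, an IGF binding protein, ran opposite to these. It read 12661 and 6131 on the iLC arrays, 170932 and 114794 on the Leydig arrays and 15436 on the MEF array. The Leydig arrays stood far above the other 3. Its log2 difference was -3.99 ± 0.45 between iLC and Leydig (SE, limma adjusted p = 0.00408), called under all 14 alternatives, and 3.18 ± 0.55 between Leydig and MEF (limma adjusted p = 0.0234), a call lost without Leydig replicate 1 or 2 (limma adjusted p = 0.111 and 0.102) and with low ends subtracted (0.051).

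The other called targets are cell cycle genes, which many pathways besides hedgehog raise. The cyclin gene Ccnd1 read 76446 and 119167 on the iLC arrays, 4801 and 5028 on the Leydig arrays and 68749 on the MEF array, so that it was high in all 3 arrays of fibroblast origin. It was higher in iLC than in Leydig by 4.28 ± 0.35 on the log2 scale (SE, limma adjusted p = 0.00179), as were Ccnd2 by 2.03 ± 0.34 (0.0158) and Ccne1 by 2.15 ± 0.39 (0.019). In Leydig against MEF, Ccnd1 was lower (-3.80, limma adjusted p = 0.00717) and so was Ccne1 (-3.94, limma adjusted p = 0.00806). Foxm1, a forkhead factor of dividing cells, read 1073 and 675 on the iLC arrays, 631 and 550 on the Leydig arrays and 12288 on the MEF array. It was the 1 target called between iLC and MEF (-3.83 ± 0.44, SE, limma adjusted p = 0.0331), and it was lower in Leydig than in MEF too (-4.35, limma adjusted p = 0.00526). The Foxm1 call between iLC and MEF did not survive leaving out any 1 iLC or Leydig array (limma adjusted p = 0.125 to 0.146), with an added 1 in place of 16 (0.0808) and with low ends subtracted (0.0964). The 3 calls between Leydig and MEF were lost without Leydig replicate 2 (limma adjusted p = 0.0585 for Foxm1, 0.0665 for Ccnd1 and 0.0733 for Ccne1). In iLC against Leydig the Ccnd2 call was lost without iLC replicate 1, iLC replicate 2 or Leydig replicate 2 (limma adjusted p = 0.0785 to 0.0935), and that of Ccne1 without iLC replicate 2, Leydig replicate 1 or Leydig replicate 2 (0.0782 to 0.136).

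**Figure D4:**
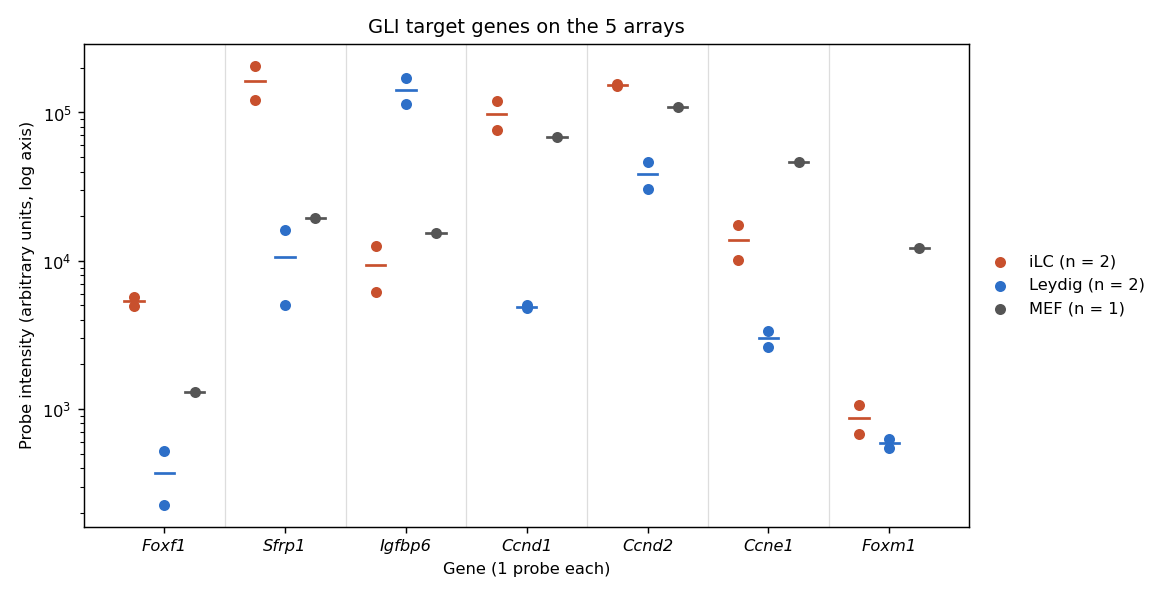
Probe intensity (log axis, arbitrary units) of the 7 GLI target genes that were called in any comparison, with 1 point per array and a short line at each group mean, iLC (n = 2), Leydig (n = 2) and MEF (n = 1) from left to right within a gene. Foxf1, Sfrp1, Ccnd1 and Ccnd2 are highest on both iLC arrays, Igfbp6 on both Leydig arrays, and Foxm1 and Ccne1 on the MEF array.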

How the data were processed

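Each sample's RNA was amplified and labelled with Cy5, per the labels' protocols, and 1 array was read per sample. The authors deposited linear probe intensities, already processed; how background and normalization were handled is not given in the sources used. Probes were named through the platform annotation: of 26423 probes 21876 had 1 symbol, 0 several and 4547 none. Of the named probes 21825 had an identifier in a RefSeq gene table (GRCm38.p6), 0 of them under another symbol. For a gene with several probes the one with the highest mean was used. Values below 0 were set to 0, 16 was added and log2 taken, a scale on which differences of dim genes are shrunk. Groups were compared with limma 3.58.1 (R 4.3.3) in a single model of all 5 arrays, with p-values adjusted over 19084 genes (Benjamini-Hochberg); the code was tested on simulated data. The alternatives changed the added value, the normalization, the probe rule, the filter on dim genes, the arrays used and the replicate block. Detection calls and slide identifiers were not used here. 0 columns belonged to no sample.

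The members and lists were chosen with earlier results of these data known, so no p-value is adjusted over a list alone. Named genes were the 8 members, the called genes and up to 4 largest differences of each other list, and the 5 nearest genes to Dhh, Gli1 and Hhip, with pseudogenes, predicted genes, RIKEN clones and olfactory or vomeronasal genes left out. Some further list genes (Shh, the delivered factors, Cyp11a1, Amh, Boc against MEF) were named after their values were seen.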

Additional observations from a re-analysis of the deposited data

How the results depend on the processing

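The count of hedgehog members called stayed at 0 under every alternative tried between iLC and MEF and between Leydig and MEF: added values of 1 and 100, median-centred and quantile-normalized arrays, aligned low ends, dim genes left out (which removed Gli1 and Hhip), the mean of a gene's probes, every named probe, and each iLC or Leydig array left out. Between iLC and Leydig the count was 0 to 1 when 1 array was left out, the 1 being Gli3 without Leydig replicate 1. The iLC and Leydig arrays share replicate numbers, but their deviations correlated at only 0.0552 over genes, so the numbers were not taken as pairs. With the replicate block the count between iLC and Leydig was 2, Dhh (limma adjusted p = 0.0398) and Gli3 (0.00207). All genes called were then 3443, against 2181 in the main fit. The block fit gave every hedgehog member the same SE, 0.489. In the main fit these SEs ran from 0.307 (Gli2) to 0.539 (Gli3). The 2 calls therefore rest on a spread common to the members, not on each gene's own spread. The count of 3443 comes from the same block fit. A fit on the 4 iLC and Leydig arrays without the block gave the same values as the main fit, since the lone MEF array adds nothing to the estimated spread. It is counted among the 14 alternatives between iLC and Leydig but is no separate check. Some signs turned. In iLC against MEF, Gli1 was 0.062 with quantile normalization and 0.20 with aligned low ends. In iLC against Leydig, Sufu was -0.0016 with quantile normalization, and with 1 array left out Sufu ranged from -0.67 to 0.73 (-0.30 without iLC replicate 1), Ptch1 from -0.27 to 0.15 and Gli2 from -0.10 to 0.16. In Leydig against MEF, with 1 array left out, Gli1 ranged from -0.036 to 0.71, Sufu from -1.09 to 0.31 and Ihh from -1.16 to 0.31, and Scube1 was -0.0077 with the mean of its probes. The cause was not tested. Over all genes, 109 were called between iLC and MEF (54 higher, 55 lower), against 415 with median-centred arrays (157 and 258), 363 with quantile normalization, 305 and 9 (7 and 2) with 100 and 1 added, 231 without dim genes, 6 (6 and 0) with aligned low ends and 0 without any 1 of the 4 replicated arrays, which leaves 1 residual degree of freedom fewer; the median over all genes was -0.11, against 0.05 with quantile normalization and 0.12 with aligned low ends. Without 1 array, 704 to 1267 genes were called between iLC and Leydig, and 149 to 963 between Leydig and MEF. Signal over background was not used here, which bears most on the dim probes of Gli1 and Hhip.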

Other observations

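Markers of stem and progenitor Leydig cells, the cells on which desert hedgehog is known to act in the testis, were called mostly in the comparisons that involve the Leydig arrays, which share those arrays. Of 8 measured, 0 were called between iLC and MEF, 2 were higher and 4 lower between iLC and Leydig, and 5 were higher and 2 lower between Leydig and MEF. Of all genes, 0.571% were called between iLC and MEF, 11.4% between iLC and Leydig and 7.38% between Leydig and MEF. Tcf21, a mesenchymal transcription factor, read 61.9 and 168 on the iLC arrays, 49873 and 35286 on the Leydig arrays and 506 on the MEF array, a log2 difference of -8.45 ± 0.48 between iLC and Leydig (SE, limma adjusted p = 0.00101). The iLC readings of Tcf21 were dim, the lower of them under the 1st percentile of the MEF array (83.8), so the size of this difference is uncertain; it was -9.07 to -7.66 over the 14 alternatives. Pdgfra, a PDGF receptor, read 28814 and 20535 on the iLC arrays, 180686 and 92654 on the Leydig arrays and 15980.0 on the MEF array (-2.41 ± 0.43 between iLC and Leydig, limma adjusted p = 0.0185). Nr2f2, a nuclear receptor of interstitial progenitors, differed by -2.19 (limma adjusted p = 0.0162) and Lifr, the LIF receptor, by -5.75 (limma adjusted p = 0.0011). Nes, nestin, went the other way, at 21304 and 20852 on the iLC arrays, 304 and 336 on the Leydig arrays and 32227 on the MEF array (5.97 ± 0.30 between iLC and Leydig, limma adjusted p = 0.000908), as did Thy1 (5.32, limma adjusted p = 0.00649). The Pdgfra and Nr2f2 calls between iLC and Leydig were lost without any 1 of the 4 arrays (limma adjusted p = 0.0508 to 0.095 and 0.0547 to 0.0924), and the other 4 were kept under all 14 alternatives. Between Leydig and MEF, Nes and Thy1 were called under all 12 alternatives, while Tcf21 and Lifr lost their calls without Leydig replicate 2 (0.0558 and 0.0524), Pdgfra and Vcam1 without either Leydig array (0.0665 to 0.0753 and 0.0586 to 0.0929) and Nr2f2 without any 1 of the 4 arrays (limma adjusted p = 0.0847 to 0.129), with an added 1 and with low ends subtracted.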
